A study of Mus musculus with 3 samples.

Results

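Embryonic erythroid cells of the mouse forebrain midline were taken as every cell in which the 7 haemoglobin genes Hba-a1, Hba-a2, Hba-x, Hbb-bt, Hbb-bs, Hbb-y and Hbb-bh1 together made at least 20% of the unique molecular identifiers (UMIs, each standing for 1 captured RNA molecule). Cells had first to hold at least 1000 genes and 2000 UMIs with at most 10% mitochondrial UMIs. The rule found 774 cells among 33001, namely 225 of 9468 in wild-type library 1, 195 of 8158 in wild-type library 2 and 354 of 15375 in the Gmnc-/- library. Since the cells were chosen by their globin UMIs, globin values are given as description only, and the results concern the other genes.

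Red cells of the early mouse embryo arise first in the yolk sac as primitive erythroblasts, which enter the circulation with their nucleus and go on dividing and maturing there. They make embryonic globins, Hbb-y and Hbb-bh1 of the beta family and Hba-x (zeta globin) of the alpha family. Definitive red cells from the fetal liver make the adult beta globins Hbb-bs and Hbb-bt with Hba-a1 and Hba-a2. In the cells described here Hba-a1 and Hba-a2 were also found beside mainly embryonic beta globins. Maturation joins globin synthesis to haem synthesis, iron import, a membrane skeleton of spectrin, ankyrin and band 3, and later the loss of organelles, under the transcription factors Gata1, Klf1 and Tal1.

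The study dissected the dorsal midline (cortical hem) region of C57BL/6J embryos, dissociated it and made 3′ single-cell libraries with 10x Genomics v3 chemistry. The wild-type libraries were both drawn from a single suspension that pooled 4 PGKCre;Rosa26YFP embryos at E11.5 with 4 Wnt3aCre;Rosa26tdTomato embryos at E12.5, so they are technical repeats and count as 1 sample. The PGK promoter drives Cre broadly, and Wnt3a marks the cortical hem. The Gmnc-/- library came from 4 pooled C57BL/6J embryos at E12.5 lacking Gmnc, a geminin-family gene of the multiciliated cell programme. With 1 suspension per genotype there is no replicate of either group: no test was made, all intervals are 95% intervals of counting error, and genotype, stage, transgenes, dissection, processing and annotation cannot be told apart.

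The libraries held 148073906, 139978761 and 259403297 UMIs. The erythroid cells held 1670875, 1493639 and 3221538 UMIs of genes other than globins, and levels below are UMIs per 1000000 of that total (CPM), so that globin abundance does not dilute the other genes. Among cells passing the filter, 52 barcodes were shared by the wild-type libraries, 42 by wild-type 1 and Gmnc-/- and 28 by wild-type 2 and Gmnc-/-. Over all deposited barcodes these numbers were 1914, 78 and 42. No erythroid cell shared a barcode with an erythroid cell of another library. Gmnc itself had 2.99, 2.68 and 32.9 CPM in the erythroid cells of wild-type 1, wild-type 2 and Gmnc-/-, against 30.7, 32.0 and 43.5 CPM in all other cells. Which part of Gmnc was deleted was not stated in the labels, and a 3′ tag outside it checks nothing. Mcidas, a partner of Gmnc in that programme, had 18.3, 20.7 and 0.0125 CPM in the other cells.

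Erythroid cells made 2.38% (2.079 to 2.704), 2.39% (2.07 to 2.75) and 2.30% (2.07 to 2.55) of the cells of wild-type 1, wild-type 2 and Gmnc-/-. The 3 shares lay within each other's intervals. They depended on the minimum of 1000 genes: with no gene minimum the shares were 2.75%, 2.64% and 6.15%, because 36 of 261, 21 of 216 and 633 of 987 globin-rich barcodes (13.8%, 9.72% and 64.1%) held fewer genes. Within the rule, the median erythroid cell had 1718, 1655 and 2491 genes, against 3706, 3918 and 3245 in the other cells. Its globin share was 64.9%, 66.3% and 46.9%. At the threshold, the erythroid cells nearest to 20% had 22.3%, 26.0% and 20.1% globin UMIs, and the nearest cells outside had 11.3%, 14.9% and 19.7%.

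**Figure D1:**
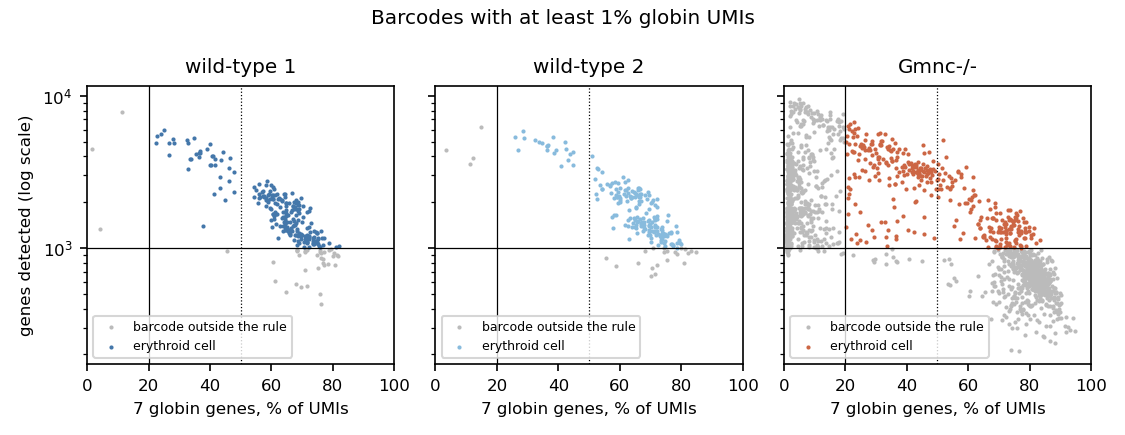
Each point is a barcode with at least 2000 UMIs and at least 1% globin UMIs, placed by its globin share (x axis, percent of UMIs) and its number of detected genes (y axis, log scale), 1 panel per library; solid lines mark 20% and 1000 genes, the dotted line 50%. The wild-type panels show a gap below 20% and few points under 1000 genes, while the Gmnc-/- panel holds 633 globin-rich points under 1000 genes and 193 coloured points between 20% and 50%.

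The content of the erythroid cells differed with their globin share. Those with at least 50% globin UMIs numbered 186, 174 and 161; those with 20% to 50% numbered 39, 21 and 193, which is 17.3%, 10.8% and 54.5% of the erythroid cells of each library. The latter had a median of 4010, 4667 and 3364 genes and 15606, 18547 and 11027 non-globin UMIs, against 1533, 1554 and 1407 genes and 5143, 5254 and 4450 UMIs in the former. Their 10 neural progenitor markers summed to 2678, 3332 and 2947 CPM, near the 3978, 4010 and 3672 CPM of the non-erythroid cells, whereas the cells with at least 50% had 278, 460 and 1293 CPM. The choroid plexus markers, led by Ttr (transthyretin), summed to 359, 50.2 and 5390 CPM in the cells under 50% and to 93.2, 62.1 and 1690 CPM in those above. A score from simulated doublets (barcodes holding 2 cells) marked 35 of 39, 20 of 21 and 83 of 193 erythroid cells under 50% globin, and 0 of 186, 3 of 174 and 14 of 161 above it. Globin genes were not left out of this score, so it is not independent of the globin share. The main counts are given for all erythroid cells by the rule and again for those with at least 50% globin UMIs. The latter is a stricter form of the same rule. Levels against other cells are by the rule unless another set is named.

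**Figure D2:**
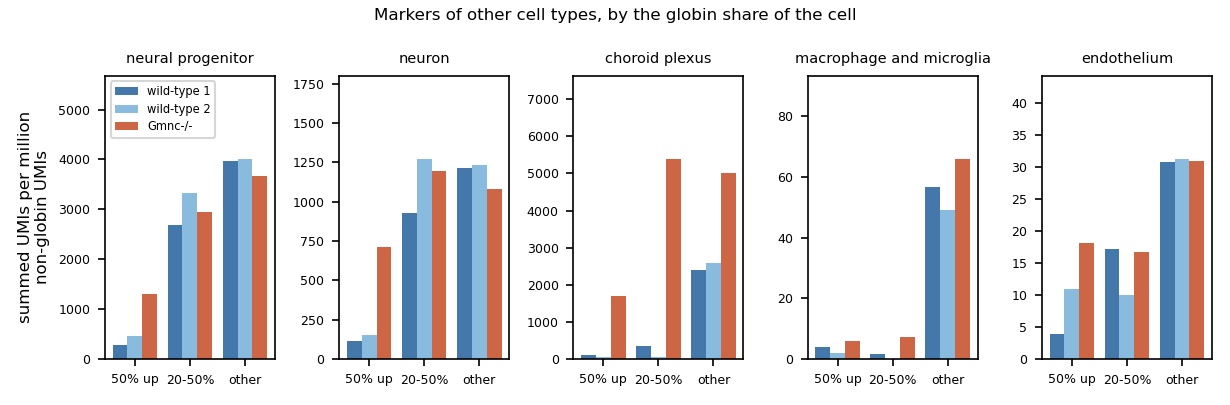
Bars give the summed level (UMIs per 1000000 non-globin UMIs, y axis from 0, a scale of its own in each panel) of 5 marker lists in erythroid cells with at least 50% globin UMIs, in those with 20% to 50%, and in all other cells, by library. Neural progenitor and neuron markers in the cells under 50% reach the order of the other cells, and choroid plexus markers do so in Gmnc-/- at 5390, while macrophage markers stay at 0 to 7.09 in erythroid cells of either kind.

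The label held against its markers. Of the 11 erythroid markers, 3 are globins and Ahsp was not in both feature sets; of the other 7, all 6 that could be tested were at least 4-fold higher in erythroid cells in every library. The markers of white blood cells, macrophages and platelets were at or near 0. The 10 markers of other white blood cells summed to 0, 0.670 and 0 CPM, with 10, 9 and 10 of them at 0. Those of macrophages and microglia (12 genes) summed to 2.99, 1.34 and 6.83 CPM, against 56.6, 49.0 and 66.0 in the other cells, and Ptprc, Cx3cr1 and Lyz2 had no UMI in any erythroid cell. Of the mesenchyme list Lgals1 (galectin 1) stood out, at 282, 333 and 149 CPM against 51.7, 51.9 and 58.6. Endothelial markers summed to 8.98, 10.7 and 17.1 CPM, against 30.7, 31.3 and 31.0 in the other cells, with Tie1, Emcn, Flt1 and Cldn5 at 0. The megakaryocyte list summed to 11.4, 16.7 and 4.04 CPM, mostly Itga2b, and Ppbp, Gp6 and Gp1bb were at 0. A count of 0 allows up to 1.80, 2.01 and 0.931 CPM.

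The globins that chose the cells were mainly embryonic. Hbb-y made 62.2%, 60.2% and 53.4% of globin UMIs, Hba-x 21.2%, 20.6% and 15.01%, Hba-a1 6.11%, 7.49% and 13.7% and Hbb-bh1 3.61%, 3.38% and 2.25%. Together Hbb-y and Hbb-bh1 made 94.5% (94.46 to 94.53), 93.1% (93.05 to 93.13) and 87.3% (87.24 to 87.34) of beta globin UMIs. Hba-x made 70.1%, 64.8% and 41.4% of alpha globin UMIs. The technical repeats themselves differed in Hba-x beyond counting error, and Gmnc-/- lay below both. Over single cells, from the 5th to the 95th percentile, Hba-x ran from 60.5% to 78.4% in wild-type 1, from 52.9% to 73.6% in wild-type 2 and from 20.4% to 54.6% in Gmnc-/-. Restricting the cells to at least 50% globin UMIs left 70.0%, 64.8% and 41.7%. Hba-a1 and Hba-a2 encode nearly the same sequence, as do Hbb-bs and Hbb-bt, so the division within each pair is uncertain.

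**Figure D3:**
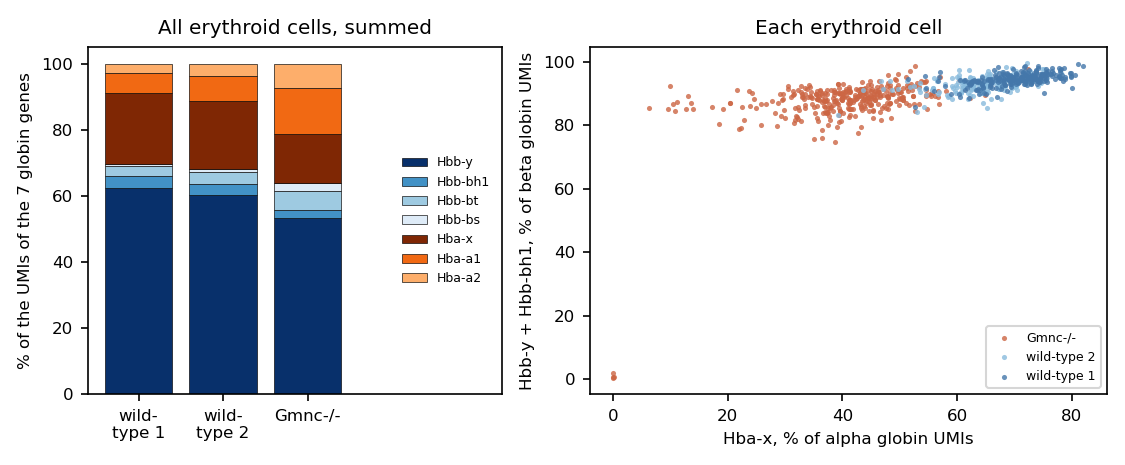
Left, stacked bars of the share of each of the 7 globin genes among the globin UMIs of all erythroid cells of a library (percent). Right, each erythroid cell by Hba-x as percent of alpha globin UMIs (x) and Hbb-y plus Hbb-bh1 as percent of beta globin UMIs (y): the Gmnc-/- cells lie left of most wild-type cells, and 4 Gmnc-/- cells stand near 0 on both axes.

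In Gmnc-/-, 4 of the 354 erythroid cells (1.13%, 0.309 to 2.87) carried adult globins almost alone: embryonic beta globins made 0.206% to 1.90% of their beta globin UMIs, against 74.8% or more in the other 350. This set, and the genes named for it, were chosen after the values were seen. In the 225 and 195 wild-type cells there was none, which leaves exact 95% upper limits of 1.63% and 1.87%. The same pattern held in 18 of the 633 Gmnc-/- globin-rich barcodes under 1000 genes (2.84%, 1.69 to 4.46) and in 0 of 36 and 0 of 21 wild-type ones. In these 18, Hbb-bs made 43.0% of globin UMIs, Hbb-bt 20.97% and Hba-x 0.109%; in the other 615, Hbb-bs made 2.50% and Hba-x 12.54%. They held a median of 374 genes, against 654. Per 1000000 non-globin UMIs they had 4965 of Mkrn1 (a ubiquitin ligase, 96 UMIs) against 836 and 13655 of Ubb (ubiquitin) against 2996. Cited4 stood at 51.7 (1 UMI) against 797. Without the 4 cells, embryonic beta globins made 88.4% in the Gmnc-/- erythroid cells.

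Against all other cells of the same library, erythroid cells were marked by membrane, haem and iron genes. A gene counted as higher when its level was at least 4-fold above that of the other cells in each of the 3 libraries with intervals apart; of 5959 genes that reached 50 UMIs and 20 CPM where they were higher, 140 did so (2.35%) and 0 were lower (0.0%). Among erythroid cells with at least 50% globin UMIs, 190 of 5536 genes were higher (3.43%) and 187 lower (3.38%); in those of them with under 2000 genes, an alternative chosen after seeing the data, 167 of 5278 were higher (3.16%) and 1077 lower (20.4%). Of the higher genes 123 were in both of the first 2 sets (87.9% of the 140, 64.7% of the 190). Without the Gmnc-/- library the counts by the rule were 274 higher and 140 lower. For the calls in the narrower sets, here and between genotypes, the other cells included the erythroid cells with 20% to 50% globin UMIs. Levels printed for other cells leave those erythroid cells out. The lower genes of the cells with at least 50% globin UMIs were led by Wif1 (a Wnt inhibitor; 2.91, 0.913 and 3.64 CPM against 38.5, 38.4 and 42.6 in the others), Nr2e1 (a factor of neural stem cells), Ptprz1, Trps1, Vangl2 (planar polarity), Creb5, Slc12a2 and Pank1.

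The 20 genes that led the set, ordered by their smallest difference over the libraries, included Slc4a1 (band 3, the anion exchanger), Alas2 (the erythroid enzyme that starts haem synthesis), Hemgn (hemogen), Hsd3b6, Pdzk1ip1, Rhd, Car2, Cited4, Ermap, Ncf4, Acp5, Icam4, Trim10, Tal1, Kel, Rhag, Cldn13 and Epb42. Slc4a1 (chr11:102348824-102366203, GRCm38) had 1240, 1342 and 537 CPM in erythroid cells and 0.315, 0.430 and 2.25 CPM in the others. That is 3943-fold, 3120-fold and 238-fold. Alas2 (chrX:150547375-150570638) had 2252, 2481 and 612 CPM against 0.429, 0.543 and 2.76. For both the erythroid level was lowest, and the level in the other cells highest, in Gmnc-/-.

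**Figure D4:**
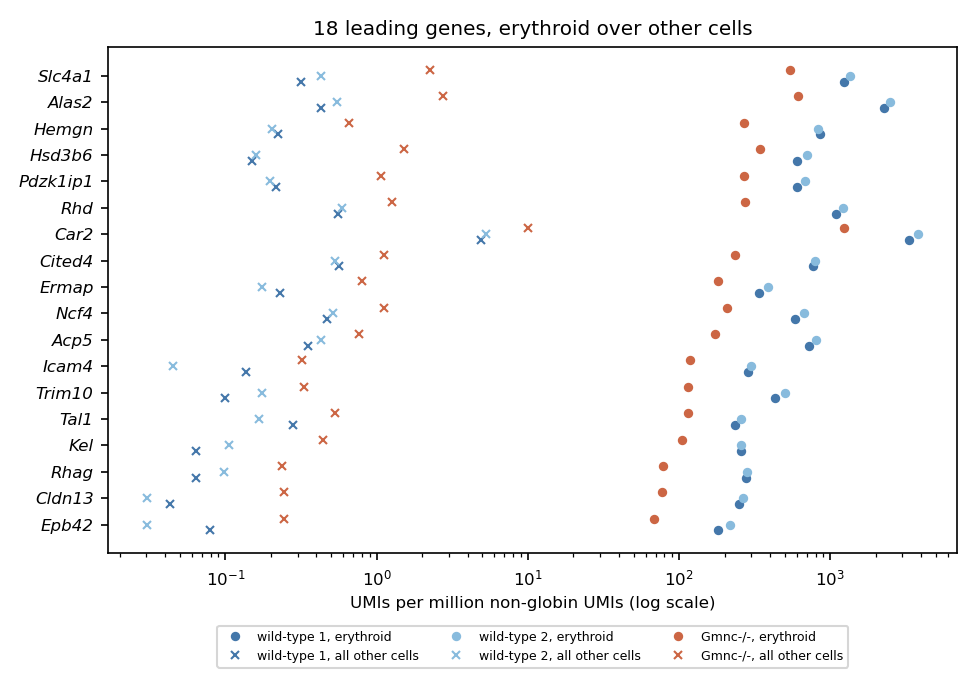
Levels (UMIs per 1000000 non-globin UMIs, log scale) of 18 leading genes in erythroid cells (circles) and in all other cells of the same library (crosses). Circles and crosses lie apart in each row, with the Gmnc-/- circles left of the wild-type ones and most Gmnc-/- crosses right of the wild-type ones.

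The level of erythroid RNA in the other cells differed between libraries in the same way for globins and for other erythroid genes. Globin UMIs made 312, 302 and 3538 per 1000000 of all UMIs there. As a share of its erythroid level, Hbb-y in the other cells stood at 0.0570%, 0.0541% and 0.784%, Hba-a1 at 0.0487%, 0.0377% and 0.670%, Alas2 at 0.0458%, 0.0570% and 0.867% and Slc4a1 at 0.0610%, 0.0834% and 0.806%. Cells with 1% to 20% globin UMIs numbered 3, 4 and 614. The part of these UMIs in the smaller folds of Gmnc-/- was not tested.

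Promoters are shown for the leading genes that moved together, because the GATA factors and Klf1 are known to bind short motifs in erythroid promoters. RefSeq windows (GRCm38.p6) of 250 bases before the start were matched by symbol for 104 of the 140 higher genes. The letters AGATAA, searched on both strands, occurred in 18 of them (17.3%) and in 2752 of 27025 windows of all genes (10.2%). CCNCNCCC, the CACCC-type motif, occurred in 69 (66.3%) and in 12340 (45.7%), and both motifs in 10 (9.62%) and 745 (2.76%). A match of one motif cannot lie inside a match of the other. These are letter matches, not binding sites. Printed below are the windows of the 20 leading genes that hold AGATAA and end before the annotated start of the gene, with every match of either motif in capitals, read 5′ to 3′ on the strand of the gene. They are at chr4:134864286-134864535 (Rhd, plus strand), chr4:115056176-115056425 (Tal1, plus), chr17:36869324-36869573 (Trim10, plus), chr3:98814444-98814693 (Hsd3b6, minus) and chr9:22135747-22135996 (Acp5, minus).
Rhd: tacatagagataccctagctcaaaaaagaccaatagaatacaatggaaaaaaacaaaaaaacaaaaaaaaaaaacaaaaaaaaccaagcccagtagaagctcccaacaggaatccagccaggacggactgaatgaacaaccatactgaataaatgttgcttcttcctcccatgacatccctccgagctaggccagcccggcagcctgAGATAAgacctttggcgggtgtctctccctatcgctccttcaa
Tal1: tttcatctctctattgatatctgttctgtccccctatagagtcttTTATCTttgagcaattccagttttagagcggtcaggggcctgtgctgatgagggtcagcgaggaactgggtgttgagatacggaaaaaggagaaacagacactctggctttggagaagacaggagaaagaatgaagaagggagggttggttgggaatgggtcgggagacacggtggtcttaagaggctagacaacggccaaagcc
Trim10: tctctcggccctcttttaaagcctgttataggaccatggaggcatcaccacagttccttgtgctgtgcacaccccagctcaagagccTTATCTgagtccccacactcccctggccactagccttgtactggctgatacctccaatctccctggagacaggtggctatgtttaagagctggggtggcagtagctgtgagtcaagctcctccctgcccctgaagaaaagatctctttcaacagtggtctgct
Hsd3b6: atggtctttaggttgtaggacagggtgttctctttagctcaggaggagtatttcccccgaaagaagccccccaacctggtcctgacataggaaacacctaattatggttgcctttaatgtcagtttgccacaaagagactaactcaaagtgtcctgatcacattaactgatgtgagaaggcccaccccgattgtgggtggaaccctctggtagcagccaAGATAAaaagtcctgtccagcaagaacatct
Acp5: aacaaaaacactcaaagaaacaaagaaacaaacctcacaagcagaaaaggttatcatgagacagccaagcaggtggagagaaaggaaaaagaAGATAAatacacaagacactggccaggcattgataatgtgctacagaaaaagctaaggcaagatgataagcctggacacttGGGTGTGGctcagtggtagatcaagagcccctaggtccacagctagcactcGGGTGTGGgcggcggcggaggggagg
In Tal1 and Trim10 the match lies on the opposite strand (TTATCT), and Acp5 also holds the CACCC-type letters.

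Haem synthesis genes were high from the first enzyme to the last. Of the 18 genes of the list 15 could be tested, 9 were higher in every library by the rule and 13 in the cells with at least 50% globin UMIs. The list's median log2 difference was 3.96, 4.03 and 2.33 in the libraries, against -0.73, -0.77 and -0.27 over all genes tested. After Alas2 the pathway includes Alad (1145, 1131 and 226 CPM in erythroid cells, against 69.8, 68.1 and 44.0 in the others), Uros (148, 161 and 35.1), Urod (843, 953 and 229), Cpox (833, 852 and 90.3) and Ppox (235, 260 and 65.5), and ends with Fech, the ferrochelatase that inserts iron (1108, 1173 and 330). Ppox did not pass by the rule and did in the cells above 50%. Alas1, the housekeeping form of the first enzyme, was at 10.2, 8.03 and 9.002 CPM, below its 20.98, 21.1 and 14.8 CPM in the other cells.

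For iron, 3 of 10 tested genes were higher by the rule, against 2.35% of all genes tested. They were Slc25a37 (mitoferrin, which carries iron into mitochondria), Fth1 (ferritin heavy chain) and Blvrb (biliverdin reductase). Fth1 took 34028, 36685 and 14660 CPM, more than any other gene of the lists outside the globins, against 1351, 1322 and 1256 CPM in the other cells. Tfrc, the transferrin receptor, had 159, 177 and 112 CPM against 27.1, 26.7 and 35.1 and passed in the cells with at least 50%. Ncoa4, the ferritin autophagy receptor, had 28.1, 36.8 and 189 CPM, but it also differed in the other cells (0.836, 0.898 and 22.3), and genes with such a shared shift were not counted between genotypes.

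Of 25 tested membrane and skeleton genes, 17 were higher, against 2.35% of all genes tested. The spectrin Sptb (227, 244 and 105 CPM), ankyrin Ank1 (147, 149 and 53.1) and protein 4.2, Epb42 (181, 217 and 68.6), were each under 1.6 CPM in the other cells of every library. So were the blood group proteins Kel and Icam4. Cd44, Aqp1 and Slc14a1, which are also red cell membrane proteins, were between 0 and 4.79 CPM in erythroid cells. Cd24a did not pass (275, 274 and 259 CPM against 230, 225 and 236).

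Among enzymes 9 of 21 were higher, led in level by Gpx1 (glutathione peroxidase, 10160, 10884 and 3892 CPM) and including Car2 (carbonic anhydrase 2; 3310, 3824 and 1232) and Bpgm, which makes the haemoglobin ligand bisphosphoglycerate (1494, 1684 and 817). Car1, the carbonic anhydrase of adult red cells, had no UMI in any erythroid cell. Of organelle loss genes 2 of 18 passed, Ube2l6 and Ypel4, against 2.35% of all genes tested. Trim58, a ubiquitin ligase of late erythroblasts, was at 5.39, 8.03 and 4.66 CPM.

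Of 18 tested transcription factors, 7 were higher: Gata1, Klf1, Tal1, Nfe2, Zfpm1, Lyl1 and Trim10, the last a RING protein kept in this list. Gata1 had 117, 104 and 20.2 CPM against 0.129, 0.0453 and 0.0583. Klf1 (chr8:84901928-84905291) had 318, 377 and 55.2 CPM against 1.72, 1.61 and 1.73. Gfi1b (48.5, 46.9 and 7.76 CPM) fell short of the minimum in Gmnc-/-. Genes of earlier progenitors were nearly silent: the 14 summed to 43.1, 52.2 and 85.7 CPM, Cd34, Spi1 and Erg had no UMI, and Gata2 had 0, 0 and 0.310 CPM. For erythropoietin signalling, Epor was at 108, 112 and 15.8 CPM. Pim1, a kinase induced by the receptor, was the 1 of 4 tested genes that was higher (410, 404 and 298 CPM against 53.1, 54.3 and 52.7). In the cells with at least 50% globin UMIs 18 of 22 membrane genes, 11 of 20 enzymes and 5 of 9 iron genes were higher. So were 6 of 15 transcription factors and 2 of 15 organelle loss genes. Of all genes tested, 3.43% were higher in these cells and 2.35% by the rule.

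The cells held mitotic RNA. None of the 20 G2 and M phase genes passed by the rule, by which 2.35% of all genes were higher and 0 lower. The list medians were 0.11, -0.07 and 0.05 against other tissue cells, and Mki67 had 653, 635 and 410 CPM against 175, 178 and 184. With every cell thinned to 1500 non-globin UMIs, 49.5% (42.1 to 56.9), 48.3% (40.6 to 56.0) and 60.2% (52.3 to 67.9) of the erythroid cells with at least 50% globin UMIs held at least 5 G2 and M phase UMIs, against 47.0%, 48.4% and 47.7% of the other cells. Unthinned, the values were 67.7%, 67.2% and 77.0% against 87.5%, 88.7% and 80.0%. The globin-rich barcodes under 1000 genes held far fewer: 13.8% (3.89 to 31.7), 14.3% (3.05 to 36.3) and 9.72% (7.10 to 12.9), with 7, 0 and 201 shallower barcodes left out. In the cells with at least 50% globin UMIs 1 of 20 G2 and M phase genes and 1 of 11 exit and survival genes were higher. There 1 of 19 S phase genes was lower, beside 3.43% of all genes higher and 3.38% lower. By the rule S phase genes passed in 0 of 19, genes of cell cycle exit and survival in 0 of 12, hypoxia and glycolysis in 0 of 9 and dissociation stress in 0 of 9. Of 6 timing genes, Arid3a and the fetal RNA H19 were higher; H19 had 265, 306 and 148 CPM against 7.40, 7.20 and 9.76. Of the multiciliation regulators 0 of 5 passed.

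Between genotypes, the erythroid cells of Gmnc-/- had less RNA of many haem synthesis genes and some erythroid regulators per non-globin UMI. They had more neural and choroid plexus RNA. Klf1 and Epor were lower by the rule and in both narrower sets below. With at least 50% globin UMIs 4 of 16 transcription factors were lower, and 1 of 10 with under 2000 genes as well. Of all genes tested, 5.2% and 4.33% were lower in these sets. A gene was called when the Gmnc-/- level was at least 2-fold above or below both wild-type libraries with intervals apart and the other cells did not shift as much. By the rule, 907 of 5621 genes were higher (16.1%) and 300 lower (5.34%), with a median log2 difference of 0.41 over all genes. With scaling by trimmed means (TMM), which shifted the differences by -0.38, the counts were 357 and 537. Of the erythroid cells with at least 50% globin UMIs, 217 of 2425 genes were higher (8.95%) and 126 lower (5.2%), around a median of -0.04; with TMM, which shifted them by -0.31, they were 144 and 284. Of the 126 lower genes 107 were also lower by the rule (84.9%, or 35.7% of the 300), and of the 217 higher genes 144 (66.4%, or 15.9% of the 907).

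The higher genes were led by Ttr, Cnr1, Clu, Sostdc1, Gmnc, Kit, Nxph4, Jph1, Notch2 and Tmem108, ordered by difference. Ttr, the retinol and thyroid hormone carrier of choroid plexus, had 141, 48.9 and 4028 CPM in erythroid cells and 2123, 2314 and 4501 in the others. In the cells with at least 50% globin UMIs, where Ttr still had 77.7, 56.6 and 1518 CPM, it was followed by Zic4, Nr2f2, Sulf1, Rspo3, Ptprs, Nhlh2, Syt11, Otx2 and Hist3h2ba. Each of these 10 genes was higher in the non-erythroid cells of Gmnc-/- than in its erythroid cells with at least 50% globin UMIs. The part of RNA from other cells in these calls was not tested.

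The lower genes included haem enzymes and erythroid regulators. By the rule they were led by Cyp4b1, Cpox, Hebp1, Epor, Tinagl1, Dhrs11, Sh3yl1, Klf1, Gfi1b and Redrum, an erythroid long non-coding RNA; in the cells with at least 50% globin by Cyp4b1, Cpox, Aqp8, Dapk2, Sh3yl1, Epor, Hebp1, Dhrs11, Brpf3 and Slc29a1. Cpox (chr16:58670292-58717636), coproporphyrinogen oxidase, had 1103, 1060 and 213 CPM in the latter cells. This was a 5.07-fold lower level (4.34 to 5.94) than the wild-type libraries together, while Cpox in the other cells had 16.3, 16.7 and 15.6 CPM. Cyp4b1, a cytochrome P450, had 54.4, 52.1 and 1.21 CPM there, the last from 1 UMI, so that its 43.9-fold ratio has an interval of 7.71 to 1748.

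In the cells with at least 50% globin UMIs, 9 of 14 tested haem synthesis genes were lower and 1, Pgrmc1, was higher; the list median was -1.22 on the log2 scale, against -0.04 over all genes. With TMM 11 were lower and 1 higher. Among all erythroid cells by the rule 14 of 16 were lower, against 5.34% of all genes. Lower too were 9 of 20 transcription factors, 19 of 28 membrane genes, 8 of 12 iron genes and 11 of 22 enzymes. In that set 54.5% of the Gmnc-/- cells held under 50% globin UMIs, against 17.3% and 10.8% in the wild type. The part of this difference in the calls was not tested. In the cells with at least 50%, where 5.2% of all genes were lower, Alas2 had 3044, 3046 and 1286 CPM, 2.37-fold lower (2.22 to 2.53). Klf1 had 418, 469 and 137 CPM, 3.25-fold lower (2.67 to 3.98), and Gata1 had 157, 133 and 53.3 CPM, 2.72-fold lower (1.98 to 3.82). Klf1, Gata1, Gfi1b and Trim10 were the 4 lower factors of 16, or 8 of 16 with TMM; Tal1 was at 319, 320 and 280 CPM and did not pass. Bcl11a was higher, at 7.77, 17.4 and 61.8 CPM, with 200, 201 and 226 CPM in the other cells.

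Of 28 membrane genes 5 were lower (Rhd, Tspan33, Tmod1, Aqp8 and Stom; 11 with TMM), and Slc4a1 was at 1641, 1660 and 1210 CPM, short of 2-fold. Iron genes were lower in 1 of 11 (Snx3, an endosomal sorting protein of transferrin recycling; 3 with TMM) and enzymes in 3 of 20 (Hebp1, Mgst3 and Slc38a5; 6 with TMM). For comparison, 5.2% of all genes tested in these cells were lower, and 284 of 2443 with TMM. Ermap (443, 473 and 452 CPM) lay within the wild-type range. S phase genes were lower in 5 of 10 (Mcm2, Mcm5, Mcm6, Tyms and Rrm2) with a list median of -1.11, while the same genes had a median of -0.45 in the other cells; with TMM 6 were lower. Of 19 G2 and M phase genes 1 was lower, Aurkb, and 3 with TMM. Of 7 dissociation stress genes 2 were higher, Jun and Ier2 (1 with TMM, Jun), and of 8 hypoxia and glycolysis genes 1, Pkm (0 with TMM), against 8.95% of all genes. The immediate early gene Jun had 15.5, 22.8 and 109 CPM, with 184, 182 and 327 in the other cells. Of 9 genes of cell cycle exit and survival 2 were higher (1 with TMM, Cdkn1c), the cell cycle inhibitors Cdkn1b, at 49.5, 56.6 and 135 CPM, and Cdkn1c, at 19.4, 27.4 and 66.7 CPM.

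The calls were fewer in the cells with at least 50% globin UMIs and under 2000 genes, where 42 of 1386 tested genes were higher in Gmnc-/- (3.03%) and 60 lower (4.33%). Of 13 tested haem synthesis genes 6 were lower there: Alas2, Uros, Cpox, Ppox, Fech and Tmem14c. Klf1 was the 1 lower factor of 10, and Epor, Hebp1, Mgst3, Aqp8 and Snx3 were also still lower. Alad, Urod, Gata1 and Trim10 were tested and not called, with log2 differences of -0.92, -0.99, -0.92 and -1.03, and Gfi1b was too low to test. None of the 5 S phase genes was called there: Tyms and Rrm2 did not pass, and Mcm2, Mcm5 and Mcm6, like Aurkb, were too low to test. Of 15 tested G2 and M phase genes 4 were higher: Top2a, Cenpf, Hmgb2 and Nusap1. Cenpf, a kinetochore protein, had 277, 155 and 584 CPM, and Top2a, the topoisomerase of dividing cells, 258, 179 and 520 CPM. Both were just over 2-fold above wild-type 1, and TMM scaling was not run for this set. Cdkn1b was again higher, at 57.7, 63.5 and 138 CPM, whereas Jun, Ier2 and Cdkn1c were too low to test and Pkm was not called.

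**Figure D5:**
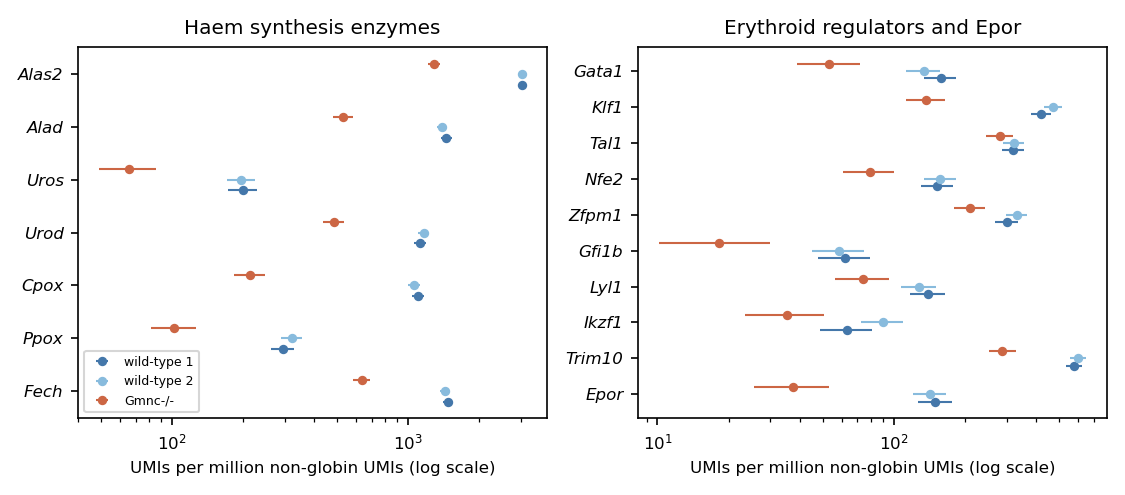
Levels in erythroid cells with at least 50% globin UMIs (UMIs per 1000000 non-globin UMIs, log scale) of 7 haem synthesis enzymes, left, and of a selection of the listed erythroid regulators with Epor, right. Points are libraries and bars 95% Poisson intervals. The wild-type libraries overlap in nearly every row and the Gmnc-/- point lies left of both in each row shown, least for Tal1. Bcl11a, higher in Gmnc-/- (7.77, 17.4 and 61.8 CPM), and other listed factors are not drawn.

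The wild-type cells also carried reporter RNA. The YFP transcript, from the allele that the labels give to the E11.5 embryos, was found in 58.7% (51.9 to 65.2) and 54.9% (47.6 to 62.0) of erythroid cells, with a median of 6 UMIs in the positive cells. The other cells gave 65.7% and 66.1%. Thinned to 5000 UMIs, globins included, the shares were 49.8% and 47.7% against 59.4% and 59.3%. Erythroid cells keep fewer non-globin UMIs than other cells in this thinning, so the shares are not at equal non-globin depth. Tomato transcript was found in 4.44% and 7.18% of erythroid cells, with a median of 1 UMI, and in 14.5% and 14.4% of the others; thinned, 0.889% and 0.513% against 9.23% and 8.83%. Cre transcript was in 0 erythroid cells and in only 0.195% and 0.276% of the other cells, too few for a comparison.

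Erythroid cells with and without YFP were close in content. Among those with at least 50% globin UMIs, embryonic beta globins made 94.2% with YFP and 94.6% without it in library 1, and 93.3% and 93.1% in library 2. Hba-x made 69.4% and 70.7% of alpha globin in library 1 and 64.4% and 65.2% in library 2. Alas2 had 3111 and 2960 CPM in library 1 and 2974 and 3135 in library 2, and Klf1 412 and 426, then 439 and 507. Of 1313 genes tested 1 differed 2-fold in the same direction in both libraries, Cd9, which was higher with YFP.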

How the data were processed

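Gene by barcode matrices of UMI counts, as deposited by the authors, were read for 3 libraries; the counts are raw, and per the file headers and the submitters' processing notes they were made with Cell Ranger 3.1.0 for the wild type, while the header of the Gmnc-/- matrix names Cell Ranger 6.0.0 and the notes 3.1.0, on mm10. The labels and headers name no annotation release. The 27040 features shared by Ensembl ID were compared; gene positions are GENCODE vM21. Levels are UMIs per 1000000 non-globin UMIs with Poisson intervals, shares carry exact Clopper-Pearson intervals, and log2 values use a pseudocount of 1 CPM. Genes needed at least 50 UMIs and 20 CPM. UMIs collapse PCR copies, so intervals cover counting error only. No doublet was removed; simulated doublets (30 principal components, 50 neighbours) were only marked. TMM scaling came from edgeR 4.0.16 (R 4.3.3). Other steps used Python 3.11.15, NumPy 2.4.6, SciPy 1.17.1, pandas 2.3.3, scikit-learn 1.9.0 and matplotlib 3.10.9. The calls were tested on simulated Poisson counts, which held no doublets, no RNA from other cells and no spread between embryos. Genes were named by the smallest log2 difference over libraries: the 20 higher and 8 lower against other cells, the 10 higher and 10 lower between genotypes (mitochondrial, ribosomal, globin, Xist, Tsix, Y-linked and Gm-number or Rik genes left out), with list members. Further names chosen after seeing values are said to be so or belong to the lists. The members and lists were chosen with earlier results of these data known. Cell filter, globin share, scaling, gene minimum, doublets and each library were varied. Some genes that the rule names are not reported here.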

Additional observations from a re-analysis of the deposited data

Results flagged for a closer look

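YFP reporter RNA, which no comparison of genotypes used, was present in 58.7% of the erythroid cells of wild-type library 1 and in 54.9% of those of wild-type library 2. The other cells of these libraries held it in 65.7% and 66.1%. No library free of the YFP allele was counted for this transcript, so a control level cannot be given. As a level, YFP stood at 528 and 498 UMIs per 1000000 non-globin UMIs in erythroid cells, against 364 and 358 in the other cells. The direction depends on the total: globins made 58.5% and 61.6% of the UMIs of these erythroid cells. Per UMI of all genes, YFP was lower in erythroid cells than in the others.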

How the results depend on the processing

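The erythroid shares were 2.38% of wild-type and 2.30% of Gmnc-/- cells, embryonic beta globin shares 93.8% and 87.3%, and the counts of genes 140 higher and 0 lower against other cells and 907 higher and 300 lower between genotypes. Gmnc-/- stayed below the wild type in embryonic beta share under each setting run. At 10% globin UMIs the Gmnc-/- share was 2.98%, with 87.34% embryonic. At 50% the shares were 2.04% and 1.05%, the embryonic shares 93.77% and 87.8%, and the counts 187 lower, then 217 and 126. With no gene minimum they were 2.697%, 6.15%, 93.69% and 85.8%, with 450 higher in Gmnc-/-. With 2000 genes and 5000 UMIs they were 0.995%, 1.55%, 94.2% and 87.0%, with 575 higher. Without marked doublets the Gmnc-/- share was 1.96%, and 1 gene was lower against other cells. Per 1000000 of all UMIs, 78 were higher and 5 lower, and 137 lower in Gmnc-/-. With 10 UMIs and no CPM minimum 229 were higher and 12 lower. TMM scaling gave 357 and 537. Leaving out either wild-type library gave 93.09% to 94.5% embryonic, 140 to 142 higher against other cells, 1169 to 1195 higher and 342 to 376 lower in Gmnc-/-. Requiring 2 YFP UMIs gave 51.9% of cells in place of 56.9%. The other settings were chosen after seeing the data: 50% with TMM gave 144 higher; 50% and under 2000 genes gave 1077 lower, then 42 and 60; omitting the Gmnc-/- library gave 274 and 140; 1500 genes gave 1.44% and 1.68%; omitting cells under 10% embryonic beta gave 88.4%. Omitting barcodes shared between libraries moved no share beyond its interval and no count by over 1.5 times. The causes were not tested. No paired analysis was possible because the wild-type libraries repeat 1 suspension and Gmnc-/- has 1 library. Depth limits genes under 20 CPM or 50 UMIs. The minimum of 50 UMIs was the stricter one in the Gmnc-/- cells with at least 50% globin UMIs, which held 824895 non-globin UMIs. With 1 suspension per genotype no spread between embryos was measured.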

Other observations

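Some genes outside the lists, chosen after their values were seen, were also higher in erythroid cells with at least 50% globin UMIs than in other cells. Reln (chr5:21884454-22344702), which encodes the secreted protein reelin known from Cajal-Retzius neurons, had 128, 128 and 72.7 CPM in these cells of wild-type 1, wild-type 2 and Gmnc-/-, against 11.2, 11.7 and 14.0 CPM in the other cells. It did not pass among all erythroid cells, at 91.0, 107 and 45.0 CPM. In the globin-rich barcodes under 1000 genes Reln had 170, 213 and 90.3 CPM. Dab1, the intracellular adaptor of reelin signalling, had 0, 8.22 and 18.2 CPM in the cells with at least 50%, against 56.7, 55.4 and 68.7 in the others.

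Hbq1b, a theta globin outside the 7 genes of the rule, had 355, 323 and 125 CPM in the cells with at least 50% globin UMIs, against 0.0715, 0.0302 and 0.146; its near copy Hbq1a makes the division between them uncertain. Ccnd3, cyclin D3, had 1110, 1086 and 368 CPM against 126, 119 and 82.4.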
